A study of Homo sapiens with 6 samples.

Results

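DHX9 binding sites on the short arm of chromosome 16 were described from 681 peak regions, 2.39% of the 28449 regions in 2 deposited peak lists. A peak was counted to the arm when it lay on chromosome 16 of the human assembly hg19 with its midpoint at or below 35 Mb. This rule uses positions and no measured height. It found 520 peaks among the 21618 of DHX9-Rb and 161 among the 6831 of DHX9-mAb. The border falls in a long stretch without peaks. The last peak of the arm ended at 31903739, and the next peak of the chromosome began at 46920327.

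The study mapped RNA sites of DHX9 in HEK293 cells, an established human line of embryonic kidney origin, by FLASH, a cross-linking and immunoprecipitation assay. RNA was tied to protein by ultraviolet light and pulled down with a DHX9 antibody, labelled DHX9-mAb or DHX9-Rb, each with 2 biological replicates. Each list stands for both replicates of its antibody and holds positions and strands only, with no height, fold or p-value, so the depth behind a peak is unknown. An IgG-Rb control with 2 replicates belongs to the study and was not analysed here. The labels name no other treatment and no altered allele.

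DHX9, also called RNA helicase A, unwinds double-stranded RNA in the nucleus. Long double strands form in human transcripts mainly where neighbouring Alu repeats lie in opposite orientation, and introns of gene-rich chromosomes hold many of them. The short arm of chromosome 16 is rich in genes and Alu repeats near its tip and again toward the centromere. Because the peaks are stranded, each places the RNA recovered with the protein on 1 strand. A row of peaks on 1 strand may come from 1 or more transcripts, and exons and introns were not told apart here. Genes are named below as textbook background for hg19 and were not checked against an annotation of that assembly. For all 15 genes named this way, the strand and the order along the chromosome matched those in GENCODE release 29, which is on another assembly. Sequences under the peaks were not analysed here, because no genome of that assembly was used.

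Peaks crowded at both ends of the arm and left most of its length empty. The first 5 Mb held 268 DHX9-Rb and 91 DHX9-mAb peaks, or 53.6 and 18.2 per Mb. The stretch from 5 to 28 Mb held 109 and 33, or 4.74 and 1.43 per Mb. From 28 to 32 Mb there were 143 and 37, or 35.8 and 9.25 per Mb, and from 32 to 35 Mb there were 0 in both lists. These borders were chosen after the peaks had been seen.

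In windows of 100 kb, 78 of the 350 windows of the arm held a DHX9-Rb peak and 45 held a DHX9-mAb peak. All 45 also held DHX9-Rb peaks, and 33 windows held DHX9-Rb peaks only. The longest empty stretch between occupied windows ran from 4.9 to 8.9 Mb. At least 10 DHX9-Rb peaks lay in 16 of the 78 windows (20.5%), beside 18.8% of all DHX9-Rb windows of the genome. Those 16 windows held 325 DHX9-Rb peaks (62.5% of the arm) and 101 DHX9-mAb peaks (62.7%). In 13 of them every DHX9-Rb peak lay on a single strand (81.2%, against 71.8% of such windows in the whole genome). Across the 78 windows Spearman's rho between the peak numbers of the lists was 0.81, beside 0.69 over all windows of the genome with a peak. The windows share the same libraries, so this is a description without a p-value.

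**Figure D1:**
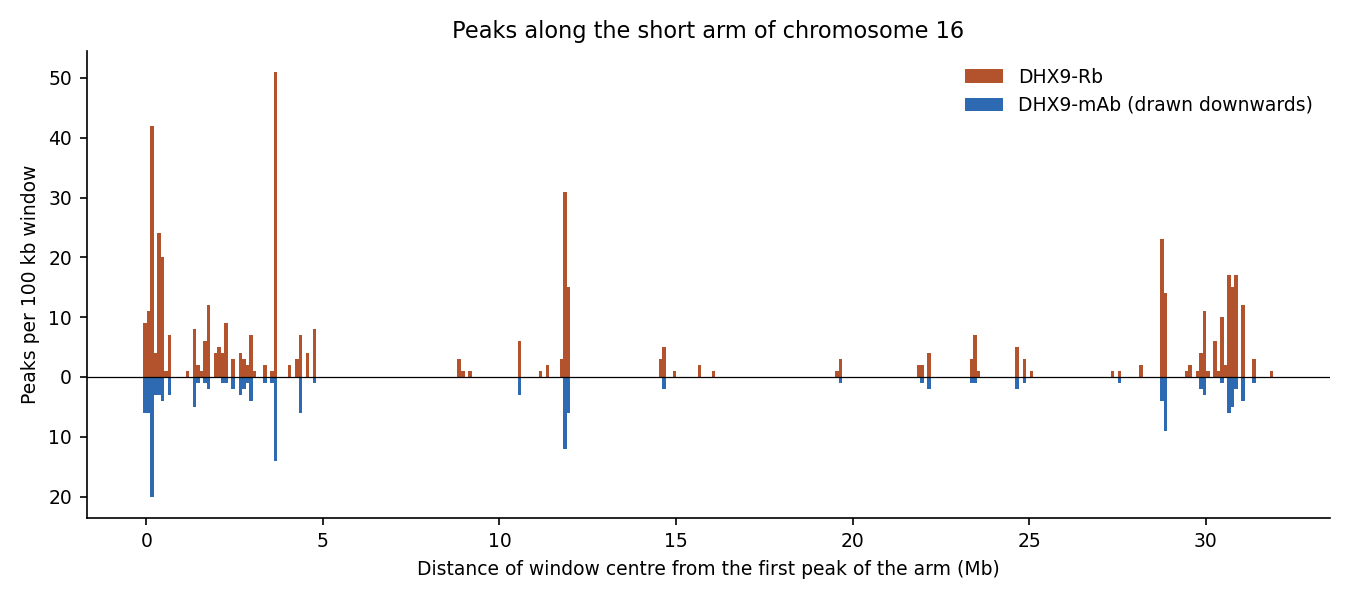
Number of peaks per 100 kb window against the distance of the window's centre from the first peak of the arm, in Mb, for DHX9-Rb (bars up) and DHX9-mAb (bars down). The fullest window holds 51 DHX9-Rb peaks and the fullest for DHX9-mAb holds 20; tall bars stand near both ends and at about 12 Mb, with a nearly empty stretch between.

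The 10 windows with the most peaks of both lists together took in 252 peaks of DHX9-Rb (48.5% of the arm) and 83 of DHX9-mAb (51.6%). The window from 3.7 to 3.8 Mb led with 51 DHX9-Rb and 14 DHX9-mAb peaks, each of them on the minus strand. It was followed by the window from 0.2 to 0.3 Mb with 42 and 20, of which 3 DHX9-Rb peaks lay on the plus strand and the others on the minus strand. Minus-strand peaks also filled adjoining windows, from 11.9 to 12 Mb with 31 and 12 peaks and from 12 to 12.1 Mb with 15 and 6. Plus-strand peaks filled the windows from 0.4 to 0.5 Mb (24 and 3), 0.5 to 0.6 Mb (20 and 4), 28.9 to 29 Mb (14 and 9) and 30.7 to 30.8 Mb (17 and 6). The window that ends at 28.9 Mb was mixed. DHX9-Rb had 16 peaks on the plus and 7 on the minus strand there, and DHX9-mAb had 4, on the plus strand. The tenth, from 30.8 to 30.9 Mb, held 15 and 5, on the minus strand except 1 DHX9-Rb peak. In the genome 26 of the 3430 windows with a DHX9-Rb peak held more of them than the arm's fullest window.

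Whether peaks of an arm window weighed differently in the 2 lists was tested with Fisher's exact test, two-sided. The test covered all 818 windows of the genome with at least 10 peaks and used Benjamini-Hochberg adjustment over them. None of the 22 arm windows tested passed 0.05, beside 0.733% of all windows (6 of 818). Without adjustment 0 of the 22 lay under 0.05, beside 6.72% of all windows. The lowest p belonged to the window from 4.4 to 4.5 Mb, with 7 DHX9-Rb and 6 DHX9-mAb peaks (odds ratio 2.71, exact p = 0.0957 before and 0.767 after adjustment). An odds ratio over 1 stands for more weight in the DHX9-mAb list, and the values of the 22 windows ran from 0.316 to 2.71 with a median of 1.09. The test had little reach toward the DHX9-Rb list. With DHX9-Rb peaks alone a window needed 32 of them to reach the largest p that passed, and 3 of the 22 windows had that many in all. With DHX9-mAb peaks alone 6 would reach that p, fewer than the minimum of 10 for a window to be tested. Since 0 arm windows held DHX9-mAb peaks only, this number does not give the reach in windows with both lists. These p-values compare 2 lists of grouped peaks and not new experiments. The fullest window that DHX9-mAb left unmarked ran from 30.3 to 30.4 Mb. Its 6 peaks, 3 on each strand between 30372204 and 30399196, were too few for the test.

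Along a strand the peaks formed runs. A run was a row of peaks of a single list and strand in which each peak began at most 5 kb after the furthest end before it. The 520 DHX9-Rb peaks fell into 133 runs, 55 of them a single peak. Runs of 10 or more peaks numbered 12 (9.02% of the runs), beside 8.65% of all DHX9-Rb runs in the genome. They held 227 peaks or 43.7% of the arm, beside 43.4% of the whole list. Of these 12 runs 6 lay on each strand, and the minus-strand runs held 148 of the 227 peaks. In the whole list minus-strand runs of this size held 4549 of 9379 peaks. The 161 DHX9-mAb peaks fell into 68 runs, of which 1 had 10 or more peaks (1.47%, beside 4% of all DHX9-mAb runs).

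**Figure D2:**
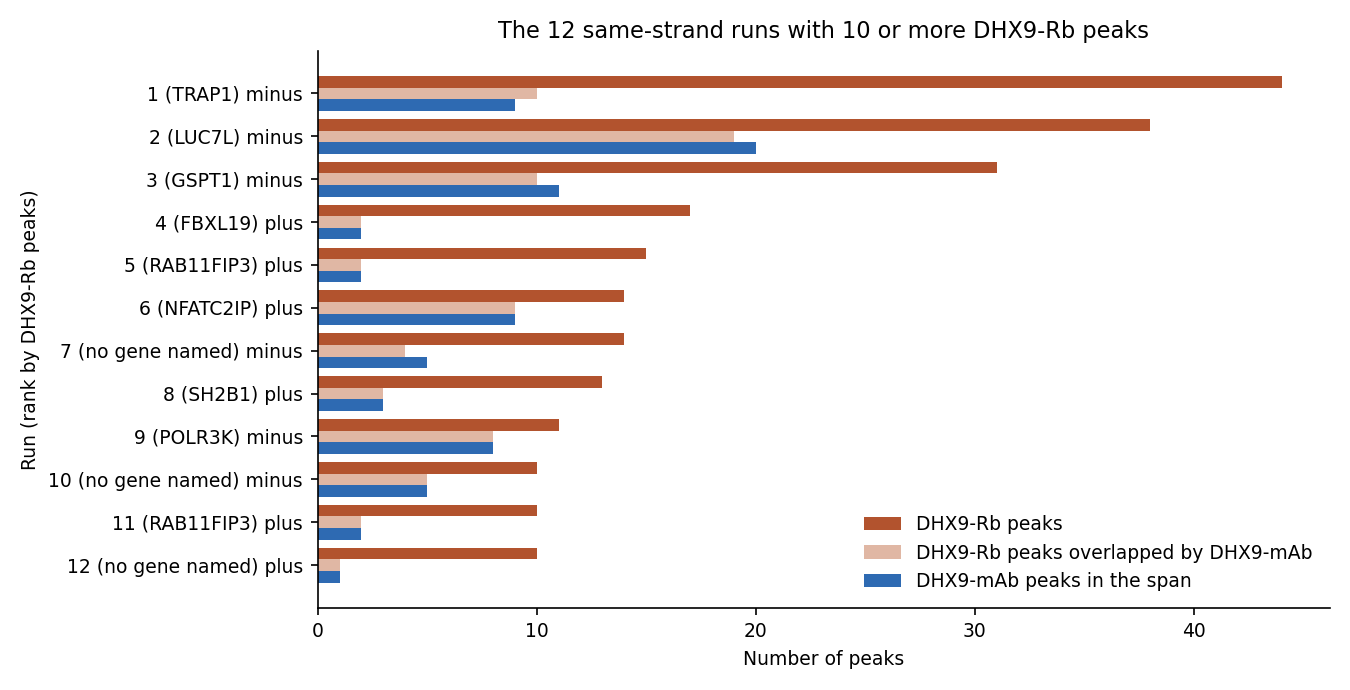
Number of DHX9-Rb peaks, of DHX9-Rb peaks overlapped by a DHX9-mAb peak, and of DHX9-mAb peaks in the span, for the 12 runs with 10 or more DHX9-Rb peaks, ordered by rank. The first 3 runs hold 44, 38 and 31 DHX9-Rb peaks, and the overlapped number ranges from 1 to 19.

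The 3 fullest DHX9-Rb runs lay on the minus strand and together held 113 of the 520 peaks (21.7%). The fullest had 44 peaks from 3741209 to 3766662, within TRAP1, which encodes a chaperone of the mitochondrial matrix. Its peaks covered 10178 nt of a span of 25454 nt, at 17.3 peaks per 10 kb. DHX9-mAb had 9 peaks in that span, and 10 of the 44 DHX9-Rb peaks were overlapped by them (22.7%). A further row of 7 DHX9-Rb peaks from 3731613 to 3734006 lay on the same strand of TRAP1, and there 6 of 7 were overlapped. That shorter row was picked out after its values had been seen.

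The second run had 38 peaks from 240543 to 277173, within LUC7L, which encodes a protein associated with the U1 particle of the spliceosome. It was the longest by span, 36631 nt, and 19 of its 38 peaks were overlapped. DHX9-mAb had 20 peaks in the span. Of these 19 formed the fullest DHX9-mAb run of the arm, from 260684 to 275294, with a median width of 237 nt. This stretch of 14611 nt also held 25 of the 38 DHX9-Rb peaks. On a minus-strand transcript it is the upstream part of the run, and the other DHX9-mAb peak lay far downstream, from 245519 to 245776. Among the DHX9-mAb runs of the whole genome this run ranked 13, while the DHX9-Rb run ranked 33 in its list.

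The third run had 31 peaks from 11981707 to 12008791, within GSPT1, the gene of the translation termination factor eRF3a. Its peaks covered 24.1% of 27085 nt. DHX9-mAb had 11 peaks in the span, and 10 of the 31 DHX9-Rb peaks were overlapped (32.3%). A group of 6 DHX9-mAb peaks from 11997403 to 11999390 stood close together, at 30.2 per 10 kb, and all 6 overlapped DHX9-Rb peaks.

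**Figure D3:**
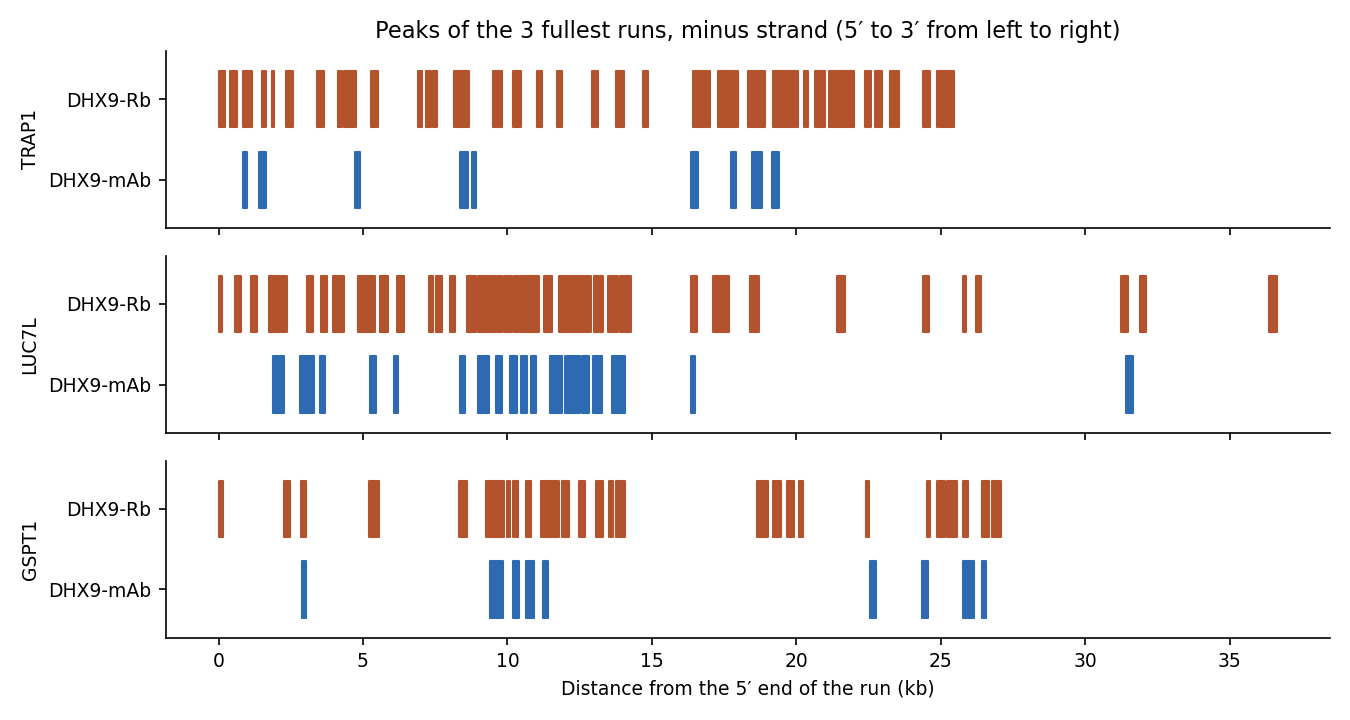
Positions of DHX9-Rb and DHX9-mAb peaks in the 3 fullest runs, as distance from the 5′ end of each run in kb, drawn 5′ to 3′ for the minus strand. In LUC7L 19 of the 20 DHX9-mAb peaks lie in the upstream part, whereas the 9 peaks in TRAP1 are spread in small groups.

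The next runs were shorter and differed widely in how much of them DHX9-mAb also marked. In FBXL19, which encodes an F-box protein with a CpG-binding domain, 17 plus-strand DHX9-Rb peaks lay from 30943400 to 30953059 and 2 were overlapped (11.8%). In RAB11FIP3, an effector of the recycling endosome, 15 plus-strand peaks lay from 481681 to 489994 and 2 were overlapped (13.3%). Another RAB11FIP3 row of 10 peaks, from 526072 to 532601, also had 2 overlapped. By contrast, in NFATC2IP, whose product binds NFAT transcription factors and carries ubiquitin-like domains, 9 of 14 plus-strand peaks from 28965681 to 28975067 were overlapped (64.3%). In POLR3K, which encodes a subunit of RNA polymerase III, 8 of 11 minus-strand peaks from 97022 to 101453 were overlapped (72.7%), and peaks covered 71.5% of that span.

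Of the ranked runs without a named gene, the minus-strand run from 30876738 to 30896566 had 14 peaks with 4 overlapped. The minus-strand run from 12064742 to 12069918 had 10 peaks with 5 overlapped. A plus-strand run from 30585311 to 30593144 tied with it at 10 peaks and had 1 overlapped. Over all 12 runs of 10 or more peaks the overlapped share ran from 10% to 72.7% with a median of 25.8%. Each share rests on few peaks of a single run, and no difference between runs was tested.

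The ranking by DHX9-mAb peaks gave a partly different order. After LUC7L with 19 peaks came NFATC2IP with 9 (28966428 to 28973728), POLR3K with 8 (97464 to 101381) and GSPT1 with 6. The fifth was a run of 5 wide peaks, median 343 nt, from 1417674 to 1420422 on the minus strand. It lies in UNKL, the gene of a zinc finger protein related to unkempt. Other minus-strand runs also had 5 DHX9-mAb peaks but covered less sequence. In the UNKL stretch DHX9-Rb had 6 peaks, 5 of them overlapped.

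Shorter runs differed in how much of them was covered, as a few examples chosen after their values had been seen show. In KAT8, the gene of a histone H4 acetyltransferase, 8 DHX9-Rb peaks covered 80.2% of 2962 nt (31132641 to 31135602), and 3 were overlapped. In PHKG2, which encodes a catalytic subunit of phosphorylase kinase, 5 peaks covered 85.5% of 2010 nt (30762582 to 30764591), and all 5 were overlapped. In PKMYT1, a kinase that inhibits CDK1, 7 peaks covered 67.2% of 2951 nt and 4 were overlapped. In NPRL3, a member of the GATOR1 complex, 6 peaks covered 58.0% of 2354 nt and 4 were overlapped. In DNAJA3, a mitochondrial co-chaperone, 7 peaks covered 27.5% of 8186 nt and 5 were overlapped. In SRCAP, a chromatin remodelling ATPase, 7 peaks covered 42.3% of 3874 nt and 1 was overlapped. Across the 29 DHX9-Rb runs of 5 or more peaks the covered part ran from 14.7% to 85.5% (median 44.5%). In 3 of them no peak was overlapped. The median density of these 29 runs was 18.04 peaks per 10 kb. The densest, on the minus strand from 14705696 to 14706906, had 5 peaks at 41.3 per 10 kb, with 2 overlapped. Next came a plus-strand run of 5 from 1833865 to 1835340, at 33.9 per 10 kb, with 0 overlapped. The 3 fullest runs lay below the median density, with TRAP1 at 17.3, LUC7L at 10.4 and GSPT1 at 11.4 per 10 kb.

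Opposite strands faced each other at a single place on the arm. There a plus-strand run of 13 DHX9-Rb peaks from 28858894 to 28869920 met a minus-strand run of 7 from 28865994 to 28870406. The plus strand is that of SH2B1, which encodes an adaptor of receptor tyrosine kinases and of leptin signalling. No gene is named here for the minus strand. The runs had 3927 nt in common, holding 6 plus and 5 minus peaks. Within it 4 plus and 3 minus peaks faced each other, in 4 combinations of 168, 155, 144 and 231 nt, or 698 nt in all. The widest minus peak, 543 nt from 28867876 to 28868418, faced 2 plus peaks, and the plus peak from 28868085 to 28868228 lay wholly within it.

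These 7 peaks were all the facing DHX9-Rb peaks of the arm, 1.35% of 520, beside 0.519% of the DHX9-Rb peaks of the genome without the mitochondrial chromosome. Within 1 kb of a peak on the other strand lay 14 (2.69%, beside 1.12%). On the long arm of chromosome 16 the shares were similar, 1.33% facing and 2.4% within 1 kb of its 750 DHX9-Rb peaks. Since the 7 peaks of the short arm come from a single place, their share describes that place and not the arm. DHX9-mAb did not mark the minus strand. It had 3 peaks on the plus run, from 28862518 to 28862668, 28868069 to 28868304 and 28869309 to 28869504, and each overlapped a DHX9-Rb peak. On the minus strand 0 of the 7 DHX9-Rb peaks were overlapped (Wilson 95% interval of the share 0 to 35.4%). On the plus strand 3 of 13 were (23.1%, 8.18 to 50.3%). These intervals overlap, and the difference between the strands was not tested. The arm had 0 facing DHX9-mAb peaks, beside 0.192% of that list without the mitochondrial chromosome. Of its plus peaks here, 2 lay across from DHX9-Rb minus peaks.

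**Figure D4:**
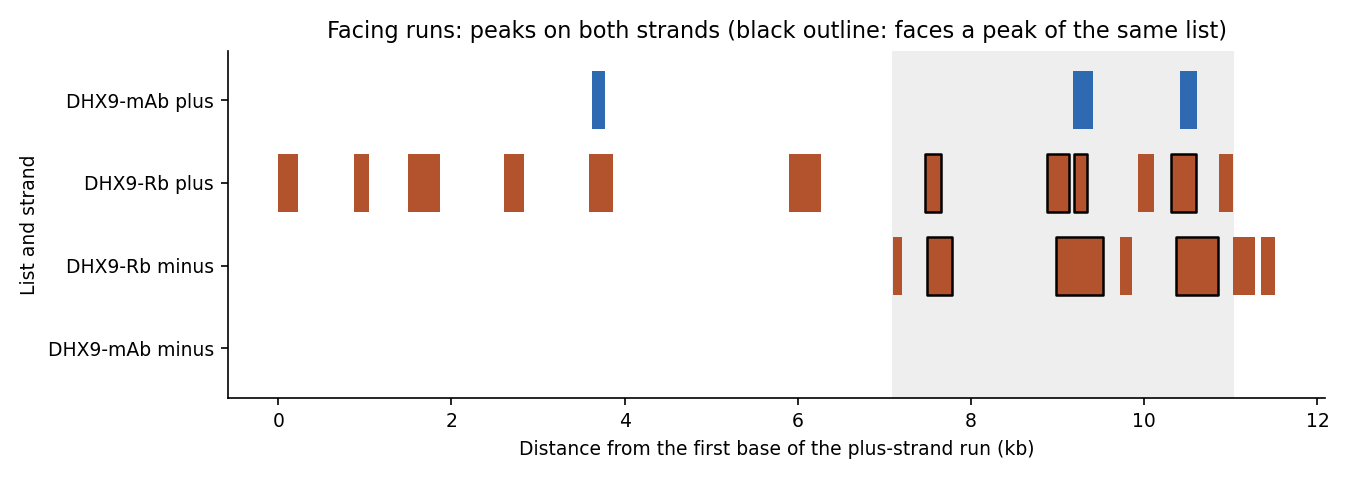
Peaks of both lists on both strands where the runs meet, as distance from the first base of the plus-strand run in kb; grey marks the 3927 nt common to both DHX9-Rb runs and black outlines mark peaks that face a peak of their own list. The 7 outlined DHX9-Rb peaks lie in the grey stretch, and the row for DHX9-mAb on the minus strand is empty.

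Elsewhere the strands kept apart. Runs of opposite strands came within 5 kb of each other at 3 places, and their spans overlapped only at the place just described. The other places were small. A single plus-strand peak from 791985 to 792244 lay 2908 nt from a run of 3 minus-strand peaks, and 2 plus-strand peaks from 2100135 to 2100996 lay 4501 nt from 2 minus-strand peaks. Upstream of the facing runs, 3 plus-strand DHX9-Rb peaks stood from 28838778 to 28840793, with 1 DHX9-mAb peak from 28840180 to 28840405. Downstream stood the NFATC2IP run, again on the plus strand only. Over the whole arm, 319 of 329 pairs of neighbouring DHX9-Rb peaks with under 1 kb between them shared a strand (97.0%, 98.8% in the whole list). The other pairs all stood at the facing runs. For DHX9-mAb all 77 such pairs shared a strand (98.5% in the whole list).

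Nearly all DHX9-mAb peaks of the arm were also DHX9-Rb sites. With an overlap of at least 1 nt on the same strand, 149 of 161 DHX9-mAb peaks were found by DHX9-Rb, or 92.5% (Wilson 87.4 to 95.7), beside 88% of the whole list. In the other direction 160 of 520 DHX9-Rb peaks were found by DHX9-mAb, or 30.8% (26.96 to 34.87), beside 28.6%. Wilson intervals cover counting error only and treat peaks as independent. Both arm shares lay in the upper part of the range of 23 chromosomes, chromosome 16 itself included. For DHX9-Rb the range was 16.8 to 36.3% (median 25.7%), with 6 chromosomes above the arm. For DHX9-mAb it was 76.0 to 94.8% (median 86.6%), with 2 above. There were 3.23 DHX9-Rb peaks for each DHX9-mAb peak (2.71 to 3.85), against 3.16 in the rest of the genome. The minus strand carried 102 of the 161 DHX9-mAb peaks (63.4%) and 279 of the 520 from DHX9-Rb (53.7%). The plus strand thus held 36.6% and 46.3%, beside 52.2% and 52.3% of the whole lists. On the long arm of chromosome 16 the plus strand held 42.1% of the DHX9-mAb and 40.5% of the DHX9-Rb peaks. The minus-strand LUC7L runs hold 19 of the 102 DHX9-mAb peaks and 38 of the 279 DHX9-Rb peaks. A reason for the strand difference between the lists was not tested.

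Paired sites were chosen because they overlap, so their midpoints had to lie near each other, and the distances only describe the pairs. Each of the 149 DHX9-mAb peaks was set beside the DHX9-Rb peak that overlapped it most. The midpoints were 34.5 nt apart in the median (interquartile range 17 to 79, highest 293.5) and within 50 nt in 93 pairs (62.4%, 61.3% in the whole list). The DHX9-Rb peak was the wider of the pair in 96 cases (64.4%), and 50 DHX9-mAb peaks lay wholly inside their partner. The median overlap was 175 nt.

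The share found by both antibodies was also taken by size of run. Of the 55 DHX9-Rb peaks standing alone, 7 were overlapped (12.7%, Wilson 6.3 to 24.02), beside 15.1% of such peaks in the whole list. In runs of 2 to 4 peaks 32 of 132 were (24.2%, beside 21.9%). In runs of 5 to 9 peaks 46 of 106 were (43.4%, 34.4 to 52.9, beside 28.03%), and in runs of 10 or more 75 of 227 (33.04%, 27.2 to 39.4, beside 36.1%). The 17 runs of 5 to 9 peaks spread from 0 to 100% with a median of 40%, and the difference of that class from the whole list was not tested. The median widths of these classes, in the same order, were 177, 199, 222 and 228 nt.

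Peak widths on the arm were within a few nt of the whole lists in the median. The arm's median was 205 nt for DHX9-Rb (interquartile range 167 to 281, lowest 52, highest 897), beside 201 nt in the list. For DHX9-mAb it was 197 nt (151 to 262, lowest 64, highest 643), beside 191 nt. DHX9-Rb peaks overlapped by DHX9-mAb had a median width of 237 nt (179.2 to 346.8) and the other 360 of 198 nt (159.5 to 257.5). The overlapped share was 19 of 92 for DHX9-Rb peaks under 150 nt (20.7%, beside 20.6% in the whole list) and 23 of 45 for those of 400 nt or more (51.1%, beside 54.4%). Wide peaks meet others more easily, so these measures are linked. Peaks of 400 nt or more made up 8.65% of the arm's DHX9-Rb peaks, beside 7.68% of the list, and 8.7% of its DHX9-mAb peaks (14 of 161), beside 6.05%. All 14 of the latter overlapped a DHX9-Rb peak, as did 94.7% of such peaks in the whole list.

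**Figure D5:**
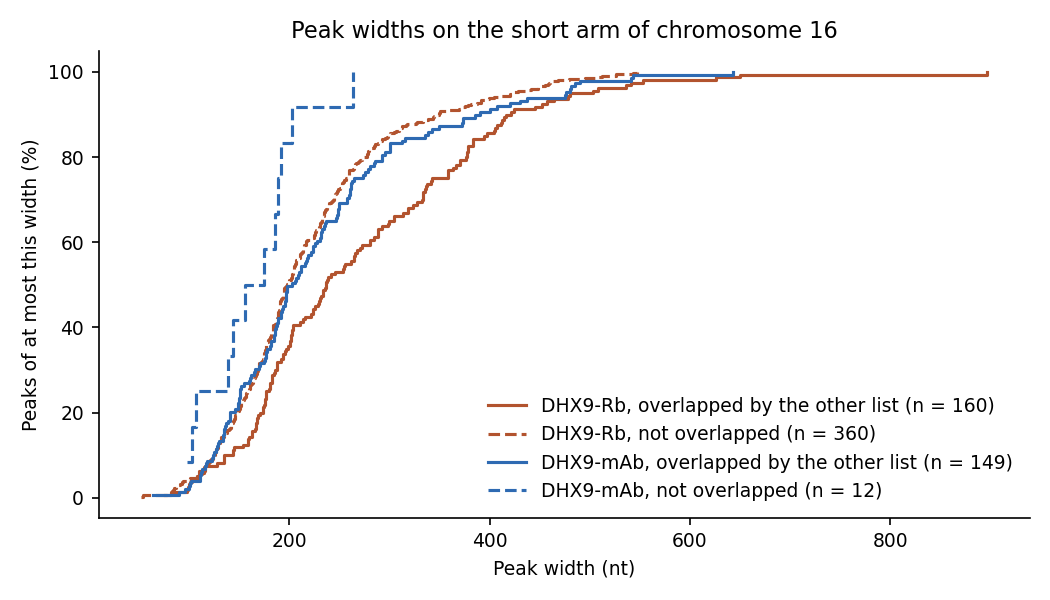
Cumulative percentage of peaks by width in nt, for peaks of the arm that were (solid) or were not (dashed) overlapped by the other list. The overlapped DHX9-Rb peaks lie to the right (median 237 nt against 198 nt), and the 12 DHX9-mAb peaks without a partner lie to the left (median 165.5 nt against 203 nt).

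The widest DHX9-Rb peak of the whole genome lay on this arm. It spanned 897 nt from 28968660 to 28969556 in the NFATC2IP run, and the widest DHX9-mAb peak of the arm, 643 nt from 28968965 to 28969607, overlapped it and ranked 7 in its list. The next 3 widest DHX9-Rb peaks, of 650, 626 and 553 nt, all stood in the LUC7L run between 264743 and 268175. They lay within the span of the fullest DHX9-mAb run. The fifth, 547 nt from 529112 to 529658 in RAB11FIP3, had no DHX9-mAb partner, nor had the sixth, the minus-strand peak of 543 nt that faces SH2B1.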

How the data were processed

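Cells were cross-linked, DHX9 was captured, and trimmed RNA received adapters with random bases for merging PCR duplicates, per the labels' protocols, which also state that control and DHX9 material were mixed before cDNA synthesis. Alignment was with Bowtie2 2.2.6 to hg19, per the submitters' processing notes. Peaks were called by the authors with PEAKachu, per the files' second column; for its settings, its handling of multiply mapping reads and how it joined replicates, the sources used here give nothing. The deposited values are peak starts, ends and strands, counted from 1. The score column held 0 numbers, no region was duplicated, and 0 columns were of unknown origin.

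From these, overlaps, runs, 100 kb windows (by midpoint) and Fisher's exact tests over all windows were computed with SciPy 1.17.1, pandas 2.3.3 and NumPy 2.4.6 under Python 3.11.15, and matplotlib 3.10.9 drew the plots. The window test was tried on a list simulated by thinning the DHX9-Rb peaks. Overlap and run functions were checked on a small made-up case with known answers. Regions named were the 10 fullest DHX9-Rb runs and 2 that tied with the last of them, the 5 fullest DHX9-mAb runs, the 10 windows with the most peaks of both lists together, the fullest window without DHX9-mAb and the runs around the facing strands. Further runs were given as the densest by peaks per 10 kb or picked after their values had been seen, as said where they appear. The members, rules and tests were chosen with earlier results of these data known. Peaks are not replicates, so shares carry 95% Wilson intervals and no test. Annotation classes and sequence were left out because the reference at hand is on GRCh38 and positions were not converted.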

Additional observations from a re-analysis of the deposited data

How the results depend on the processing

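Of 30 alternatives over 6 results, 24 left the value within its Wilson interval or within 1.5 times the count. These 24 include another border rule, counted for each of the 6 results. For the window test it only repeated the main setting. For the other results that rule could change nothing, because 0 peaks lay within 100 kb of the border. Requiring an overlap of at least 50% of the narrower peak lowered the found share to 85.7% for DHX9-mAb and 26.5% for DHX9-Rb, and of the wider peak to 66.5% and 20.6%. Counting strands within 1 kb as facing raised the facing DHX9-Rb peaks from 7 to 14 (2.69% of the arm). Gaps of up to 1 kb left 7 runs of 10 or more peaks instead of 12, and merging peaks within 50 nt left 8. The number of arm windows past the adjusted threshold of Fisher's exact test stayed at 0 with 50 kb, 200 kb and shifted windows, a minimum of 20 peaks and merged peaks. Peak heights were not analysed here, so a stricter peak threshold was replaced by a width of at least 150 nt. No replicate could be left out, since each list stands for both of its replicates. No paired analysis was possible because the lists hold no values of the separate replicates.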

Other observations

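The 12 DHX9-mAb peaks of the arm without a DHX9-Rb partner lay at varied distances from DHX9-Rb sites. Of these 7 lay within 1 kb of a DHX9-Rb peak on the same strand, with gaps from 3 nt, and 5 of the 7 stood beside runs of 10 or more DHX9-Rb peaks. Among them were peaks from 99650 to 99747 in POLR3K, 268653 to 268808 in LUC7L, 3757734 to 3757877 in TRAP1 and 11986043 to 11986245 in GSPT1. A pair of plus-strand peaks, from 4481077 to 4481183 and from 4481829 to 4482020, lay 1955 and 1118 nt from the DNAJA3 run. The most distant, on the minus strand from 1564052 to 1564154, was 143742 nt from the nearest DHX9-Rb peak. The 12 peaks had a median width of 165.5 nt. For the 820 such peaks of the whole list these distances were not counted. Runs of 10 or more peaks held 43.7% of the arm's DHX9-Rb peaks. A place beside such a run is therefore not taken as a trait of the 12.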
